A study of Drosophila melanogaster with 2 samples.

Results

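One-sided promoter peaks are peaks of the fly protein CG15073 near a protein-coding start that has no other protein-coding gene starting back to back with it. A summit, the highest point of a peak, counted if it lay within 500 bp of the start of a protein-coding gene and if that nearest start had no start of another protein-coding gene on the opposite strand within the 1000 bp upstream of it. By this rule 424 of the 1445 peaks of the deposited dm6 list were one-sided. They made up 59.8% of the 709 peaks at protein-coding starts (exact 95% binomial interval 56.1 to 63.4). The remaining 285 lay at divergent promoters, where 2 genes start back to back, and 736 peaks lay away from protein-coding starts. The 424 peaks named 389 genes, of which 357 had 1 such peak, 29 had 2 and 3 had 3.

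The peaks come from ChIP-seq (chromatin immunoprecipitation and sequencing), in which DNA bound by a chosen protein is pulled down and read. The embryos were 0 to 24 h old, of both sexes, and belonged to the strain CG15073-GFP, which carries CG15073 fused at its C-terminal end to enhanced green fluorescent protein (eGFP); an antibody to GFP pulled down the fusion. The 2 libraries, biological replicates 3 and 4, are the only group, from 1 transgenic line, and all cell types of the embryo are mixed. No second condition exists among them, so no difference below was tested between conditions, and intervals cover the counting of peaks only. Read depth is unknown from the peak lists.

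A promoter is the stretch around the base where RNA polymerase II begins a transcript. In flies many genes start back to back and share the DNA between them, while others start alone. Long developmental and neural genes often carry several alternative promoters, so a start may lie at the outer edge of the gene or deep inside it, within an intron of a longer transcript.

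The sequences of 5 promoters are given as examples with the summit close to the start. They belong to the strongest one-sided peaks with the summit between 0 and 150 bp upstream of the start among those found in both replicates. By this choice all 5 summits lie nearer to the start than the median one-sided summit, at −200 bp (negative is upstream). They do not stand for the one-sided set as a whole. Each sequence runs 5′ to 3′ along the gene over 200 bases of the Release 6 assembly (dm6), from RefSeq, with the start at base 151. The 21 bases centred on the summit are in capitals. SP1173 lies at chr3L:6703472-6703671 on the minus strand, SdhD at chr3R:23760551-23760750 on the minus strand and fray at chr3R:18585730-18585929 on the plus strand. CG14100 lies at chr3L:19590475-19590674 and Kcmf1 at chr3R:9014173-9014372, both on the minus strand.
SP1173: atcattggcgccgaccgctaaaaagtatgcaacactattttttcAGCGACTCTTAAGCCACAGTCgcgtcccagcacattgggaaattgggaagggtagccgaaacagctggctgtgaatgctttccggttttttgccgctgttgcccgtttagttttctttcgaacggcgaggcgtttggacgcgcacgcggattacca
SdhD: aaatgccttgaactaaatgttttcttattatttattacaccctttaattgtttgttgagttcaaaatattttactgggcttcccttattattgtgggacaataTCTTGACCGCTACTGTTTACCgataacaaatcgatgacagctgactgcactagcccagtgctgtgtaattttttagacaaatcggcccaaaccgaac
fray: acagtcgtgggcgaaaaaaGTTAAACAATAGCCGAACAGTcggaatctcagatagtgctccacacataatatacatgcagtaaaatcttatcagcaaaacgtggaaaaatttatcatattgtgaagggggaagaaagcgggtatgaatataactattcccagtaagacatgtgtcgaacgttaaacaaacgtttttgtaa
CG14100: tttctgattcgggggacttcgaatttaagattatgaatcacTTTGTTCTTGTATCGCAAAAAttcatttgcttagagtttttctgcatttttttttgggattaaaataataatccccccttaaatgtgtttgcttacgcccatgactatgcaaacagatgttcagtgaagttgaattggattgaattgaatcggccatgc
Kcmf1: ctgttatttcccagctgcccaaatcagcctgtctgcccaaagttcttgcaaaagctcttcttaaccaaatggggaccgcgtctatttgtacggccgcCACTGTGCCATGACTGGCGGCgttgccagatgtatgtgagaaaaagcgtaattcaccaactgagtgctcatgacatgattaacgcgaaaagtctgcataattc

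These 5 windows differed in composition, with G and C at 51.5% of bases in SP1173 and at 35% in CG14100. Strings were searched on both strands. CGATA, a half-site of the boundary factor BEAF-32, began 27 bp upstream of the SdhD start. At CG14100 the match, 99 bp upstream of the start, was on the opposite strand and is printed as TATCG inside the capitals. GCCAT, the core of the Pho site, began 47 bp upstream of the Kcmf1 start, inside the capitals. Downstream of the start, TCAGT, the Initiator core, began 11 bp inside the CG14100 transcript, and CG14100 had GCCAT at 43 bp. In Kcmf1 the match to TCAGT, 5 bp inside the transcript, was on the opposite strand only and is printed as ACTGA. None of the 9 strings searched was found in the SP1173 and fray windows. A match of this kind describes the letters and not a binding site.

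The summits stood upstream of the start, at a distance. The median one-sided summit lay at −200 bp (exact 95% interval of the median −217 to −181; negative values are upstream), with the middle 50% between −310 and −112 bp. Of the 424, 370 lay upstream, which is 87.3% (exact 95% interval 83.7 to 90.3). The 100 bp bin with most summits was −200 to −100 bp, with 116, followed by −300 to −200 bp with 99. Only 43 lay in the last 100 bp before the start, and 54 lay downstream. At divergent promoters the median was −94 bp (−105 to −84) and 82.5% lay upstream (77.5 to 86.7). The 2 starts of a divergent promoter were a median of 302 bp apart and 235 of 285 summits lay between them, so the distance to the nearer start is bounded there by the rule itself, and the difference in offset was not tested.

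**Figure D1:**
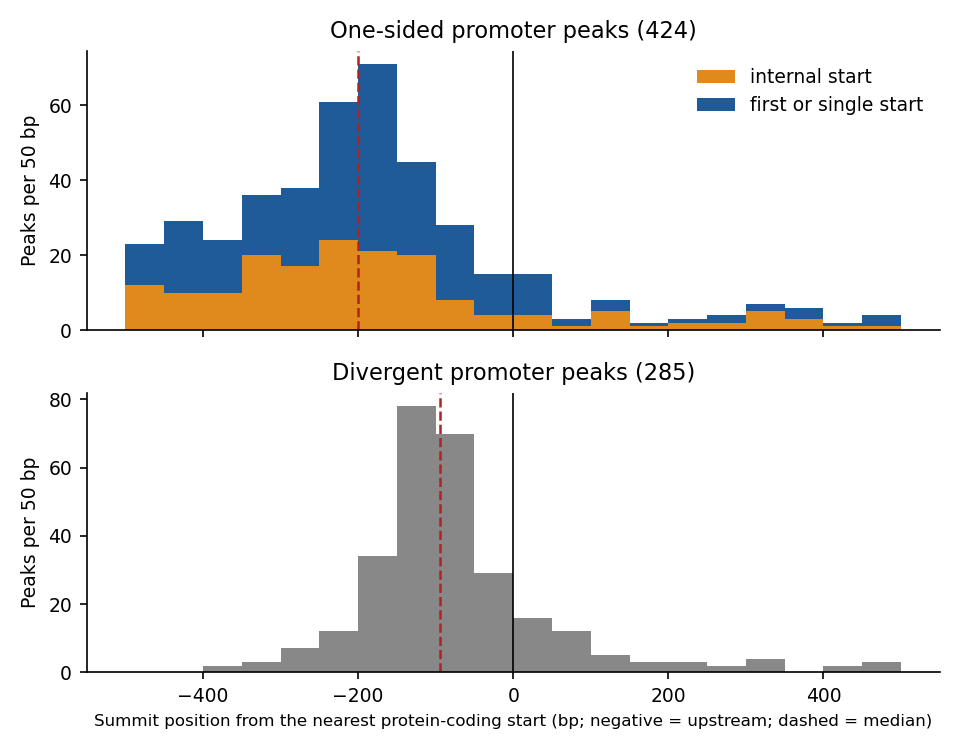
Number of peaks per 50 bp (y axis) by the position of the summit from the nearest protein-coding start in bp (x axis, negative is upstream), for the 424 one-sided peaks above and the 285 divergent ones below; dashed lines are medians, at −200 bp and −94 bp. Internal starts (orange) and first or single starts (blue) of the one-sided set are stacked and spread over the same distances.

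The summits of each replicate are described only where they lay within 200 bp of a pooled summit, and the pooled list was made from the same 2 libraries, so their closeness to it follows in part from this choice. By the summit of replicate 3 the median was −212 bp (exact 95% interval −229 to −189, 364 peaks), and by that of replicate 4 it was −207 bp (−225 to −188, 321 peaks). The share upstream was 89.0% in replicate 3 and 87.2% in replicate 4. The median distance between the pooled summit and the summit of the replicate was 15 bp for replicate 3 and 17 bp for replicate 4. Weaker peaks of the pooled list, which did not enter the authors' final list, were placed more loosely under the same rule. Among 2738 such peaks the median was −114 bp (−128 to −102) and 63.5% lay upstream (61.6 to 65.3).

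The deposited signal, the authors' own measure of peak strength on an unstated scale, had a median of 102.4 over the one-sided peaks (exact 95% interval of the median 96.6 to 110.8). Divergent peaks had a median of 97.7 (91.6 to 100.7) and peaks away from protein-coding starts one of 92.7 (90.0 to 96.5). The one-sided values ran from 66.6 to 9689. The median signal per bin of offset lay between 89.2, for the last 100 bp before the start, and 112.6, for −300 to −200 bp.

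Among the one-sided peaks, 276 (65.1%; exact 95% interval 60.3 to 69.6) were found in both replicates, meaning that a summit within 200 bp was among the 1445 strongest peaks of each replicate's own list. For divergent peaks the share was 63.9% (58.0 to 69.4). Replicate 3 held 85.8% of the one-sided peaks and replicate 4 held 75.7%. Over the 404 one-sided peaks with a partner in both relaxed lists, the signals of the replicates had a Spearman's rho of 0.677 and, on the log2 scale, a Pearson's r of 0.825. The points share 2 libraries and were picked from the top of the pooled list, so both values are descriptions. Peaks found in both replicates had a median pooled signal of 130.6, and those not found in both one of 75.8, a difference that follows from the definition by strength. Their median offsets were −204 bp (exact 95% interval −228 to −187) and −187 bp (−228 to −171).

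**Figure D2:**
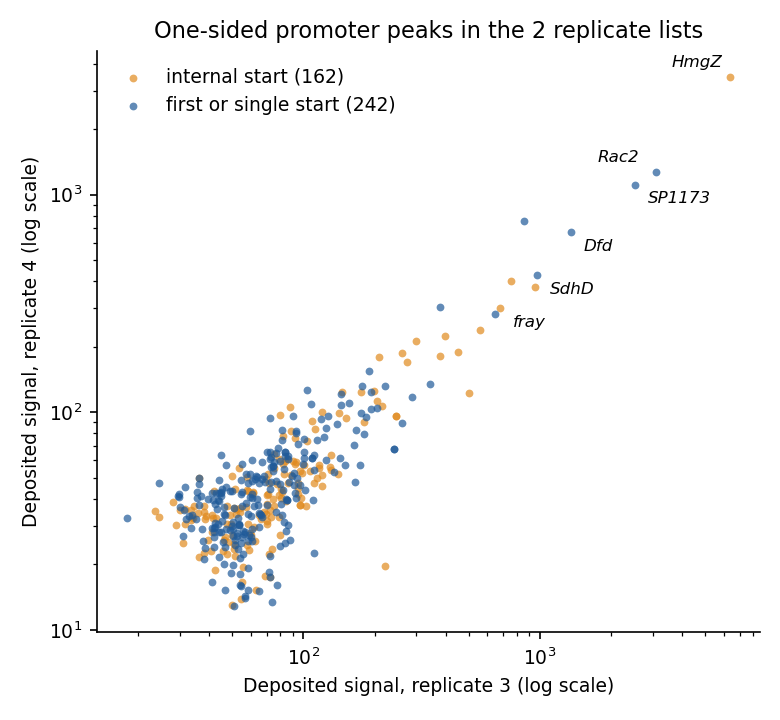
Deposited signal of each one-sided peak in replicate 3 (x axis) and replicate 4 (y axis), both on log scales without a stated unit, for the 404 peaks with a partner in both lists. HmgZ, Rac2 and SP1173 stand at the top of both axes, and internal (orange) and first or single starts (blue) overlap.

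The next question was whether the peaks sat at the first start of their gene or at an internal one, taken as any start over 100 bp downstream of the gene's first. Internal starts held 171 of the 424 peaks (40.3%; exact 95% interval 35.6 to 45.2), the first of several starts held 88 (20.8%; 17.0 to 24.9) and the only start of a gene held 165 (38.9%; 34.2 to 43.7). To set this against the annotation, starts of a gene within 100 bp of each other were counted as 1 start group. Of 13037 one-sided start groups 408 had a peak, or 3.13%. The share was 4.12% at internal starts (165 of 4001; exact 95% interval 3.53 to 4.79), 4.04% at the first of several starts (82 of 2028; 3.23 to 4.99) and 2.3% at only starts (161 of 7008; 1.96 to 2.68). Within genes of several starts, internal ones were 66.8% of the groups with a peak (60.6 to 72.6) and 66.4% of all groups, a share near the background.

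The position of the summit was also alike. The median offset was −211 bp (exact 95% interval −247 to −175) at internal starts, −188 bp (−230 to −173) at the first of several and −197 bp (−221 to −168) at only starts. The median signals were 109, 101.9 and 96.6 in that order, with exact 95% intervals that overlap (96.9 to 116.8, 93.4 to 120.5 and 89.8 to 110.8). What differed by construction was the place in the gene: all 171 internal summits lay inside their own gene, 144 of them in introns and 26 in 5′ UTRs, while 122 of the 165 summits at only starts were between genes. Over all one-sided peaks, 177 summits were intergenic, 168 intronic, 53 in a 5′ UTR, 8 in coding sequence, 8 in a 3′ UTR and 10 in non-coding exons. A further protein-coding gene covered the summit in 56 cases (13.2%; exact 95% interval 10.1 to 16.8), such as Rac2, whose summit lay in an intron of CG42458.

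Among starts that are the first or only one, the strongest peak found in both replicates was that of Rac2. Its summit at chr3L:7435403 lay 213 bp upstream, with a pooled signal of 4318, 3098 in replicate 3 and 1269 in replicate 4. SP1173 followed with 3616, 2532 in replicate 3 and 1110 in replicate 4. Dfd, the homeotic gene Deformed of the head segments, had 2000, with 1359 and 674 in replicates 3 and 4, and its summit lay 316 bp upstream. All 3 were among the 13 strongest peaks of each replicate. CG6023 (1613) and SdhD (1367), which encodes a membrane subunit of succinate dehydrogenase in the mitochondrial respiratory chain, came next. SdhD had 2 summits in 1 listed region: the strong one 37 bp upstream and one of signal 97.6 at 249 bp upstream, which had no partner in replicate 4.

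Sox102F, a Sox-family transcription factor gene on chromosome 4, had its summit 27 bp inside the transcript, in the 5′ UTR (914; 648.5 in replicate 3 and 281 in replicate 4). CG14100 (686), Smr, which encodes a nuclear co-repressor (474), CG9628 (414) and CG8468 (356) completed the 10 strongest. Their summits lay between 99 and 417 bp upstream. The order of the replicates differed for the lower ones, with CG8468 at rank 71 in replicate 3 and rank 178 in replicate 4.

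The strongest internal peak was also the strongest of the whole list. HmgZ, a gene of a high mobility group box protein that bends DNA, had its summit 456 bp upstream of a start that lies 5031 bp inside the gene. Its pooled signal was 9689, with 6348 in replicate 3 and 3464 in replicate 4, and the neighbouring gene HmgD covers the same base. A second HmgZ summit, 17 bp upstream of a start 3360 bp inside the gene, had a signal of 117.4 and a partner in replicate 3 (128.4) but none in replicate 4.

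The other strong internal peaks were smaller by several fold. The kinase gene fray, whose product regulates ion transport, had 981 (678 in replicate 3, 301 in replicate 4) at 121 bp upstream of a start 12789 bp inside the gene. The peak of galectin, which encodes a sugar-binding lectin, had 1155, at 290 bp upstream. Adk2, for adenylate kinase 2, had 768, vir-1, a virus-induced gene, 601, S6KL, for an S6 kinase-like protein, 595, and Kcmf1 had 546. These starts lay 687 to 1728 bp inside their genes. For px, or plexus, a gene of wing vein patterning, the start lay 47966 bp inside and the signal was 515. At S6KL the replicates ranked the peak unequally, at 43 in replicate 3 and 113 in replicate 4, and a neighbouring summit of the same listed region (609, at 414 bp upstream) had no replicate 3 partner within 200 bp. vir-1 had a second summit 388 bp upstream (232.6) that ranked 93 in replicate 3 and 5685 in replicate 4. That was the widest gap of ranks among one-sided peaks, followed by Nadk2 (516 and 21983), with a signal of 78.4; gaps were compared on the log2 scale.

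Over the 171 internal peaks, the start lay a median of 3616 bp from the first start of the gene (exact 95% interval 2290 to 5011). A start with several summits counts more than once here. Over all 4001 internal one-sided start groups the median was 2319 bp (2149 to 2501), a value within the interval of the peaks. Members at both the first and an internal start of the same gene were found in 6 of 389 genes (1.54%; exact 95% interval 0.568 to 3.33).

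The genes mtd, Rtnl1 and Ptpmeg2 had 3 one-sided peaks each, all at internal starts. The gene mtd (mustard) is 80328 bp long with 10 start groups. Its peaks had signals of 1301, 616 and 71.7 at starts 67064, 63123 and 51666 bp inside the gene, and the weakest of the 3 was not found in both replicates, which also held for Rtnl1 and Ptpmeg2. The strongest mtd summit lay 449 bp downstream of its start. Rtnl1, which encodes reticulon-like protein 1 of the endoplasmic reticulum, had 267.9, 136.7 and 80.2 at starts 12339, 4792 and 10218 bp inside the gene. Ptpmeg2, a protein tyrosine phosphatase gene, had 165.4, 145.1 and 76.7 at starts 13220, 8369 and 18521 bp inside. The 6 summits of Rtnl1 and Ptpmeg2 lay 151 to 355 bp upstream of their starts. No first start of these 3 genes carried a one-sided peak.

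**Figure D3:**
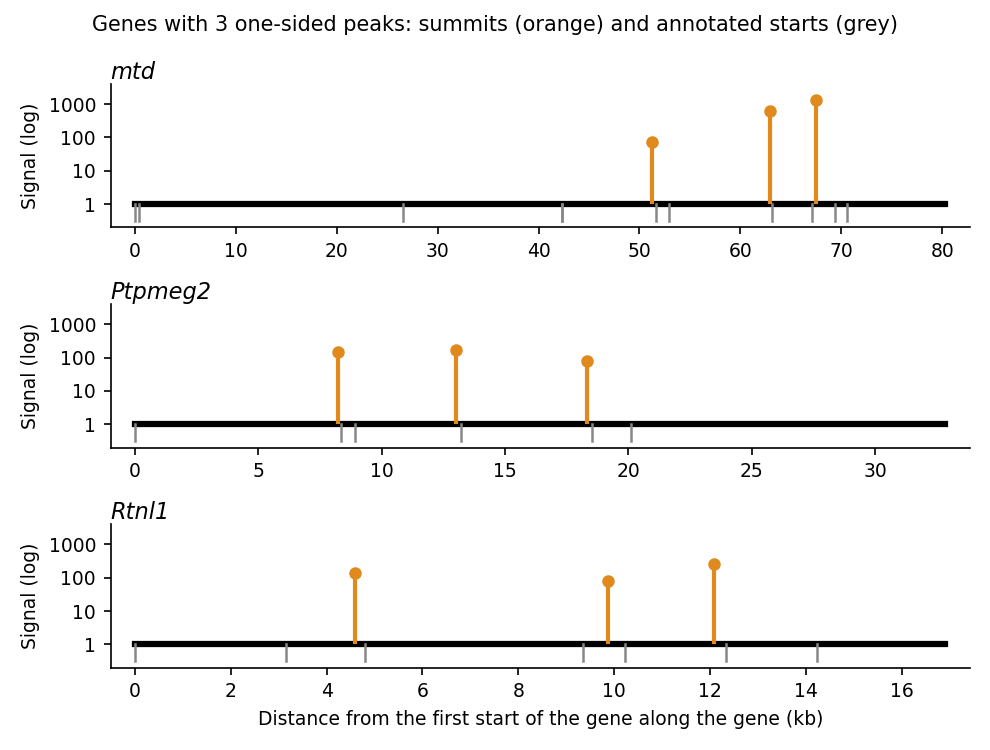
Pooled signal (y axis, log scale, no stated unit) of the one-sided summits along mtd, Ptpmeg2 and Rtnl1 (x axis, distance in kb from the first start along the gene); orange lines are summits, grey ticks are annotated starts and the black bar is the gene. The 9 summits stand close to internal starts and none at the first, and the strongest reaches 1301 in mtd.

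Summits more than 100 bp downstream of the start were few, at 36 of 424 (8.49%; exact 95% interval 6.02 to 11.6). Besides mtd, the strongest found in both replicates was that of Galphao, a G protein subunit gene, at 370 bp downstream (354; 245.8 in replicate 3 and 96.5 in replicate 4). A second Galphao summit, 194 bp upstream of the next start (123.5), had the same partner peaks in both replicates. Sxl, the master gene of sex determination, had its summit 308 bp downstream of a start 987 bp inside the gene (319; 215.8 in replicate 3 and 106.4 in replicate 4). The pseudokinase gene trbl had 288 in coding sequence at 383 bp downstream (192.4 in replicate 3 and 103.2 in replicate 4). In each of these 3, replicate 3 gave the higher signal; the scales of the replicate lists were not stated to be comparable.

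Genes with a one-sided peak were long. The median length was 7270 bp for the 389 genes with a peak (exact 95% interval 6284 to 9024), against 2210 bp (2158 to 2274) for the 9265 protein-coding genes that have a one-sided start and no one-sided peak. Genes of divergent peaks had a median of 2729 bp (2486 to 2974, 281 genes). The 389 were 4.03% of all 9654 genes with a one-sided start. By 4 length classes of equal size, from the shortest (168 to 1173 bp) to the longest (6363 bp and over), 0.952%, 2.24%, 4.1% and 8.82% of genes had a peak. Genes with a peak also had several one-sided start groups more often, in 51.7% (46.6 to 56.7) against 21.0% (20.2 to 21.9) of genes without one, and the part of this in the length difference was not tested.

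**Figure D4:**
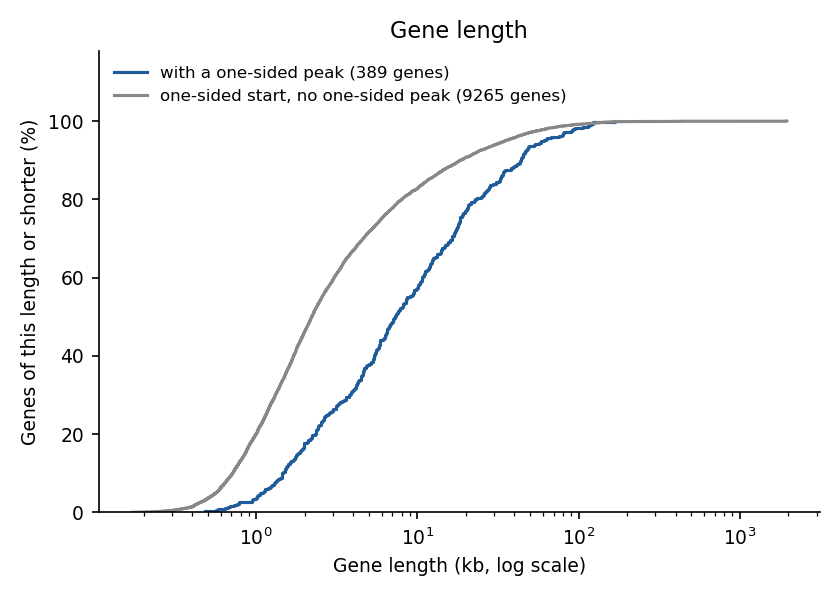
Share of genes (y axis, percent) at or below a given length (x axis, kb, log scale) for the 389 genes with a one-sided peak (blue) and the 9265 with a one-sided start and no such peak (grey). The blue curve lies to the right, with a median of 7270 bp against 2210 bp.

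The shares were also counted over start groups. From the shortest to the longest class, 0.921%, 2.02%, 3.18% and 4.91% of start groups had a peak, with exact 95% intervals of 0.585 to 1.38, 1.52 to 2.63, 2.6 to 3.85 and 4.31 to 5.57. Among genes with only 1 start group the shares were 0.901% (21 of 2331), 2.17% (46 of 2124), 2.60% (41 of 1579) and 5.44% (53 of 974; 4.10 to 7.06). In the longest class internal starts had 5.03% (4.22 to 5.93), the first of several 4.14% (3.03 to 5.52) and only starts 5.44%, with overlapping intervals. At the first of several starts the shares did not rise steadily: from the shortest to the longest class they were 2.44%, 2.32%, 4.8% and 4.14%. At internal starts the classes between the shortest and the longest had 0.694% and 3.09%. In the shortest class 0 of 84 internal start groups had a peak, which allows up to 3.57%. No test was made on these shares, since peaks are not replicates.

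**Figure D5:**
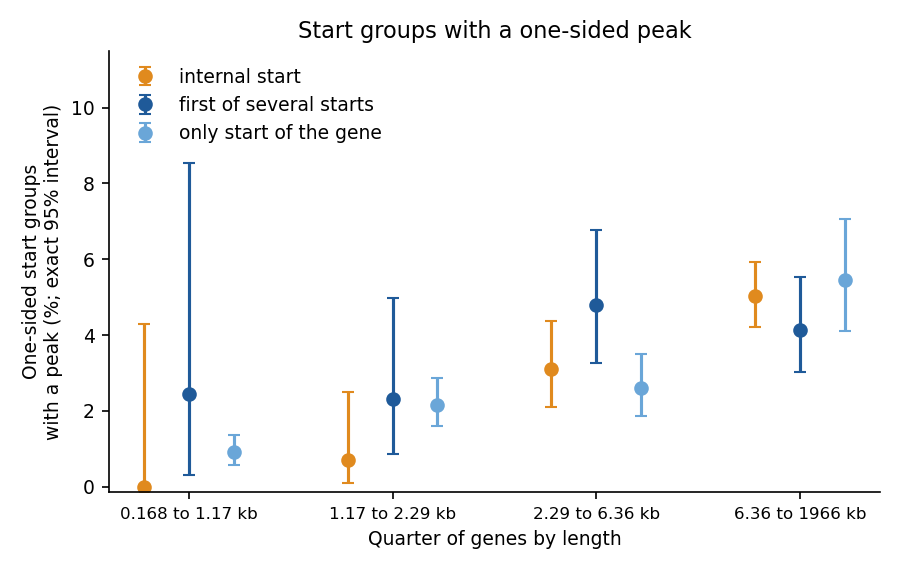
Share of one-sided start groups with a peak (y axis, percent, points with exact 95% binomial intervals) in 4 classes of genes by length (x axis, kb), for internal starts (orange), the first of several starts (dark blue) and only starts (light blue). From the shortest to the longest class the shares run through 0.901%, 2.17%, 2.60% and 5.44% for only starts and through 2.44%, 2.32%, 4.8% and 4.14% for the first of several, and the intervals of the 3 kinds overlap in the longest class.

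The ends of the length scale are shown by named genes. The longest gene with a peak found in both replicates was dnc, which encodes a cAMP phosphodiesterase studied in learning, at 167328 bp. Its peak (152.1; 90.4 in replicate 3 and 59.6 in replicate 4) stood at a start 118841 bp inside the gene. It was followed by shep, an RNA-binding protein gene of 122124 bp (272.9; 175.2 in replicate 3 and 99.3 in replicate 4), with the summit 230 bp upstream of its first start. In kek5, a leucine-rich repeat transmembrane protein gene of 118734 bp with 1 start group (143.8), the summit lay 171 bp inside the 5′ UTR. The shortest were CG34117 (484 bp, signal 81.1), CG43051 (566 bp, 103.9) and CG30154 (576 bp, 86.6). CG43051 lies within the gene bun.

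The genes of 5 lists of developmental and trafficking roles were read against the 4.03% of genes with a one-sided start that had a peak. Only list members with a one-sided start count, and no list was tested. Notch pathway genes had 3 of 13 (23.1%; exact 95% interval 5.04 to 53.8). They were gro, the Groucho co-repressor gene (180.1; 103.1 in replicate 3 and 73.9 in replicate 4), numb, a Notch inhibitor gene (102.5; 57.4 and 36.5), and neur, a ubiquitin ligase gene for Notch ligands (71.8; 45.6 and 23.0), which was not found in both replicates. All 3 peaks stood at internal starts, 113 to 147 bp upstream.

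Wnt and Hedgehog pathway genes had 3 of 22 (13.6%; exact 95% interval 2.91 to 34.9). The Hedgehog co-receptor gene boi had summits at 200 and 404 bp upstream (293.7 and 102.8) that shared their replicate partners. The gene sgg, for glycogen synthase kinase 3, had 165.2 at a start 12685 bp inside, and nkd, a Wnt antagonist gene, 83.9; nkd was not found in both replicates. Axon guidance genes had 2 of 26 (7.69%; 0.946 to 25.1), the netrin receptor gene unc-5 (81.9) and the semaphorin receptor gene PlexA (74.8), which was not found in both replicates. Cell polarity and adhesion genes had 1 of 23 (4.35%; 0.11 to 21.9), mew, an integrin subunit gene (91.9), which was not found in both replicates. Rab GTPase and vesicle traffic genes had 0 of 20, which allows up to 15%. The intervals of the polarity, axon and vesicle lists hold the background of 4.03%, and so does that of the Wnt and Hedgehog list. That of the Notch list begins just above it, at a count of 3 genes. The lists were not matched for gene length. In the longest class 8.82% of genes had a peak, a share that lies within the Notch interval. The Notch genes gro (8176 bp) and numb (26716 bp) belong to that class.

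Letter strings of known sites were searched on both strands in windows reaching 100 bp to either side of the one-sided summits. They were set beside windows of the same length at −200 bp from all 13037 one-sided start groups. TATAAA, known as the TATA box, was in 32.5% of peak windows (138 of 424; exact 95% interval 28.1 to 37.2) and 29.5% of all windows, TCAGT (Initiator core) in 34.0% (29.5 to 38.7) and 29.7%, and GCCAT (Pho core) in 28.1% (23.8 to 32.6) and 29.5%. CGATA, which is part of the longer DREF element, was in 22.9% (19.0 to 27.2) and 24.1%. TAATTA (homeodomain core) was in 15.1% (11.8 to 18.9) and 15.4%, GAGAGAG, bound by the GAGA factor, in 6.37% (4.24 to 9.13) and 6.09%, AGNNGGCGC (CTCF core, N being any base) in 2.36% (1.14 to 4.29) and 1.84%, and TATCGATA (DREF element) in 1.18% (0.384 to 2.73) and 1.35%. For these 8 the share over all one-sided starts lay within the interval of the peaks. CAGGTAG, a Zelda site, was in 1 of 424 windows (0.236%; 0.00597 to 1.31) and in 1.33% of all windows, just above that interval. The peak windows held a median of 34.8% G and C (exact 95% interval 33.8 to 35.8) and the windows of all starts 37.8%. Windows at divergent peaks held 33.3% (32.3 to 34.3), so a median below that of all one-sided starts was not particular to one-sided peaks.

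Peaks at divergent promoters held some of these strings at other shares: GAGAGAG in 1.05% (exact 95% interval 0.218 to 3.05), TATAAA in 47.4% (41.4 to 53.3), TCAGT in 25.6% (20.7 to 31.1) and TATCGATA in 4.56% (2.45 to 7.67). These differences were not tested, and the strings were not counted over all divergent starts. The 5 one-sided peaks with TATCGATA, named after their values were seen, lay at Alg3 (147.4), CG1827 (75.1), eEF1gamma (72.2), CG7006 (71.6) and Nsun5 (70.1), all 65 to 84 bp upstream and none at an internal start. That strip is nearer to the start than the median one-sided summit. Alg3 encodes an enzyme of protein glycosylation and eEF1gamma a subunit of the translation elongation factor.

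Peaks next to the limits of the rule had signals of 68.0 to 164.1. Just inside 500 bp were CG17896 and ITP, an ion transport peptide gene, both at 499 bp upstream (164.1 and 143.1). Just outside, at 501 bp downstream, were CG31612 (162.3) and Kank (79.7). At the limit of 1000 bp, the nearest opposite-strand start lay 1015 bp upstream for Eno, the enolase gene (116.8), and 1027 bp for CG9776 (68.5), which were kept. It lay 995 bp upstream for CG5849 (68.0) and 977 bp for Pax (102), which count as divergent. Of these peaks, CG17896, Kank, CG9776 and CG5849 were not found in both replicates, and CG17896 had no partner in replicate 4. The label held for most members beyond the rule: 324 of 424 (76.4%; exact 95% interval 72.1 to 80.4) had no opposite-strand protein-coding start within 3000 bp upstream, and 25 had an opposite-strand start of any kind of gene, non-coding ones included, within 1000 bp.

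The one-sided peaks were spread over all arms, with 87 on 2L, 84 on 2R, 66 on 3L, 94 on 3R, 3 on chromosome 4 and 90 on X. X held 21.2% of the peaks (exact 95% interval 17.4 to 25.4) and 17.3% of one-sided starts. On 3L the shares were 15.6% (12.2 to 19.4) and 19.3%. They were 20.5% and 18.5% on 2L, 19.8% and 20.8% on 2R, 22.2% and 23.3% on 3R and 0.708% and 0.849% on chromosome 4. The last listed peak on 3L ended at base 22879041 and the last gene at 28012599. On X these ends were 21594266 and 23538283. Any one-sided starts beyond the last peak are counted in the shares of starts. Another summit of the final list lay within 500 bp of 40 one-sided peaks (9.43%; 6.83 to 12.6) and of 12 divergent peaks (4.21%; 2.19 to 7.24). For 11 one-sided peaks, those of boi and Galphao among them, the partner summits in both replicates were also those of another listed peak, so such pairs are not separate observations. The 424 summits fell in 422 listed regions, since SdhD and S6KL each had 2 summits in 1 region.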

How the data were processed

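ChIP-seq peaks of CG15073-eGFP came from 2 libraries. The authors deposited a final list of 1445 peaks on dm6, a relaxed list of 23030 peaks of both replicates pooled and relaxed lists of 30000 peaks for each replicate. Per the texts deposited beside them, the final list passed an irreproducible discovery rate (IDR) step. All 1445 are the strongest of the pooled list. The deposited signal per peak has no stated scale or normalization. The deposited −log10 q-value ran from 2.03 to 3.24 in the final list and reached its maximum in 64.4% of one-sided peaks, so peaks were ordered by signal. The aligner, the peak caller, its IDR threshold and the depth: not given in the sources used here. The lists on dm3 and any control were not analysed here.

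Starts are those of all transcripts of protein-coding genes in the Ensembl release 115 annotation of BDGP6.54 on 6 arms (13945 genes, 19607 starts); sequence came from RefSeq's Release 6 assembly. For 9 one-sided peaks starts of different genes were equally near, and the first by position, then strand, was used. Shares have exact 95% (Clopper-Pearson) binomial intervals and medians exact order-statistic intervals; beside a count of 0 the limit is 3 counts of the total. Both were tested on simulated data. Python 3.11.15, pandas 2.3.3 and scipy 1.17.1 were used.

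The members, lists and rules were chosen with earlier results of these data known. Named genes are the 10 strongest peaks at first or only starts and at internal starts, the 4 strongest over 100 bp downstream, the 3 longest and 3 shortest genes, all found in both replicates. Also named are the 5 genes with most peaks, members of 5 lists (a further list is not reported here), peaks at the limits and the 2 with the widest gap of ranks. Of the list symbols, Dl, nct, Dx, fringe, Arf79F, Arf51F and Arf102F were not matched.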

Additional observations from a re-analysis of the deposited data

How the results depend on the processing

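Each of 8 summaries of the one-sided peaks was recomputed under 8 alternatives, with 2 further ones each for internal starts and for recurrence. Of 68 values 54 stayed within 1.5 times the reported count or within the reported 95% interval, 14 moved beyond it and 0 reversed. The share at internal starts, 40.3%, stayed between 35.9% and 42.9% throughout. Within 250 bp of a start the count was 251, the one-sided share 48.9%, the median offset −153 bp and the median gene length 5971 bp; within 1000 bp the share upstream was 81.7%. With the opposite-strand start sought within 500 bp and 2000 bp the one-sided share was 68.7% and 50.5%. The stronger 722 peaks gave 233 one-sided ones, with a median signal of 146.4 and 92.7% found in both replicates. Recurrence within 50 bp in place of 200 bp was 45.3%. Replicate 4 and then replicate 3 was left out, taking the 1445 strongest peaks of the remaining list. The median signal was then 65.0 and 42.65 on the scale of each list. The counts of these 2 settings were 432 and 375, their median offsets −203.5 and −205 bp and their median gene lengths 8264 and 6792 bp. Each such peak finds itself in its own list, so recurrence there is only the share found in the replicate left out, 65.3% and 73.1%. Both values are among the 68 and do not measure recurrence in 2 lists. The narrower 250 bp window itself bounds the offset and the count. Taking the stronger 722 peaks lowers the count and raises the signal by choice, and recurrence is itself defined by rank. A 50 bp limit can only lower recurrence. The 500 bp and 2000 bp opposite-strand windows can only raise and lower the one-sided share. The cause of the remaining shifts was not tested. Without a read depth, peaks absent from a list cannot be told from peaks too weak to be listed.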
